A study of Homo sapiens with 36 samples.

Results

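PERK KO and wild-type H1 cells were compared at day 10 of differentiation toward cardiomyocytes. H1 is an established human embryonic stem cell line, and PERK KO is the H1 line in which PERK, encoded by EIF2AK3, was knocked out. The comparison was defined by the sample labels alone, as all genes in the 3 PERK KO libraries of day 10 against the 3 H1 libraries of day 10, which are 6 of the 36 RNA-seq libraries of the series. The other 30 libraries hold the same genotypes at days 0, 1, 2, 3 and 5, in triplicate. Neither the way PERK was disrupted nor the number of clones is given in the sources used here, so genotype and clone cannot be told apart. The labels do not say whether the 3 libraries of a group came from separate cultures, and p-values therefore measure only the spread between libraries. That spread was estimated over all 36 libraries of the series and not from the 6 compared libraries alone.

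Both genotypes received the same schedule. The stem cells were first switched to a defined basal medium. CHIR99021, a GSK3 inhibitor that activates WNT signalling, was present at 5 µM on days 0 to 1. IWP2, which blocks the secretion of WNT ligands, followed at 3 µM on days 2 to 5. Heparin was present at 3 µg/ml on days 1 to 7 and insulin at 20 µg/ml from day 7, so all 6 libraries come from cells that had seen every agent and were in insulin. The series' design text lists collection at days 0, 2 and 6, whereas the sample labels give day 10 for these libraries; the labels were used.

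PERK is a kinase that sits in the membrane of the endoplasmic reticulum. When unfolded proteins accumulate it phosphorylates the translation factor eIF2, which slows general protein synthesis and favours translation of the transcription factor ATF4. ATF4 and its partner DDIT3 then switch on genes for amino acid supply, redox balance and recovery of translation, a programme known as the integrated stress response. In the cardiac protocol a WNT pulse drives stem cells through primitive streak and mesoderm to cardiac progenitors under NKX2-5, GATA4 and TBX5, which then build sarcomeres. Stem cells that do not receive mesoderm signals are known to take an ectodermal path, in which SOX2 is kept and the anterior neural plate comes under SIX3, RAX and PAX6.

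The libraries held between 16440864 and 22688318 gene-level counts each. Levels are given as TMM-scaled CPM, counts of a gene per 1000000 counts of its library, for the same gene across libraries, and as TPM, which is also scaled by transcript length, where levels of several genes are summed. Mitochondrially encoded transcripts took 5.03 to 5.89% of the counts in wild type and 2.81 to 2.99% in PERK KO. Replicates differed beyond counting noise in both groups, with a chi-square per degree of freedom of 26.8 to 58.8 among the wild-type pairs and 3.22 to 8.58 among the PERK KO pairs. PERK KO replicate 2 had the lowest level among the PERK KO libraries for 19 of the 21 cardiac transcription factors tested, and also for 18 of 20 endoderm, 12 of 15 endothelial and 14 of 18 fibroblast and matrix genes. Without it 20 cardiac factors, 10 endoderm, 12 endothelial and 12 matrix genes were called lower, against 20, 10, 13 and 12 with it. The fold changes also followed base composition: from the fifth of genes with the lowest GC content (median 38.8%) to the fifth with the highest (61.7%) the median log2 fold change ran from 0.98 to -0.65, and the Spearman correlation across genes, which are not independent replicates, was -0.37. The part of this trend in single genes was not tested. A fit with GC and length offsets, chosen after seeing the data, is given beside the named genes whose call or direction it alters. Counts of list members below are from the fit without offsets unless stated, and the offsets altered many of them. Endoplasmic reticulum chaperones went from 6 higher and 7 lower to 4 and 9, and NOTCH genes from 8 and 4 to 11 and 3. Glycolysis and hypoxia genes went from 2 and 14 to 5 and 13. Lower calls went from 8 to 6 for HOX genes and from 11 to 10 for thick filament genes. The offsets moved 70 of the 185 genes named here by more than 1.5 times, for example GATA4 (-4.78 in place of -5.44).

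A gene was called where edgeR's quasi-likelihood test gave a Benjamini-Hochberg adjusted p under 0.05. Of 19772 genes tested at day 10, 13301 were called, or 67.3%, with 6575 higher in PERK KO (33.3%) and 6726 lower (34.0%). The libraries of the 2 groups did not overlap for 14303 genes (72.3%). A call or a lack of overlap was thus the common outcome for any gene, and each group of genes below is to be read against these shares. At least a 2-fold difference was called for 9012 genes and at least a 32-fold difference for 525. The median absolute log2 fold change over all genes tested was 0.98. In bulk RNA, fewer cells of a type and less RNA per cell cannot be told apart, and this holds for every result here.

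EIF2AK3 mRNA (chr2:88556741-88627576, minus strand, GRCh38) was at 28.1, 21.6 and 16.8 CPM in the wild-type libraries and at 22.3, 20.9 and 22.9 CPM in the PERK KO libraries. The groups overlapped. The log2 fold change was -0.01 ± 0.20 (SE), with an adjusted p of 0.981 in edgeR's quasi-likelihood test with Benjamini-Hochberg adjustment. Gene-level counts include transcripts from an allele altered in its sequence, so this level checks neither the protein nor the labels of the libraries.

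Genes that specify the heart had the lowest median fold change of the 44 gene lists examined. Lists and members were chosen with earlier results of these data known, so a rank among the lists is a description and not a test. Of 21 cardiac transcription factors tested, 20 were lower in PERK KO and 1 was higher, with a median log2 fold change of -5.41 against 0 over all genes. The libraries of the 2 groups were apart for all 21. NKX2-5, the homeobox factor that marks cardiac progenitors, was at 621, 618 and 975 CPM in wild type and at 10.96, 3.26 and 11.4 CPM in PERK KO. Every PERK KO library was far below the lowest wild-type library, and replicate 2 was the lowest. The log2 fold change was -6.43 ± 0.39 (adjusted p = 2.15e-14, edgeR's quasi-likelihood test with Benjamini-Hochberg adjustment), or -5.61 with GC and length offsets. TBX5, the T-box factor of the first heart field, was at 53.8, 51.4 and 78.0 CPM in wild type and at 0.472, 0.0518 and 0.776 CPM in PERK KO, a log2 fold change of -7.07 ± 0.51 (-7.84 without PERK KO replicate 3). GATA4, a zinc finger partner of both, was at 470, 370 and 701 CPM against 16.5, 6.89 and 12.1 CPM, a log2 fold change of -5.44 ± 0.29. HAND2 (-6.33 ± 0.46), TBX20 (-6.08 ± 0.35), GATA6 (-5.87 ± 0.28) and the ventricular factor IRX4 (-7.34 ± 0.38) also fell, whereas MEF2C fell by 3.48 ± 0.36 and HEY2 by 3.03 ± 0.17 on the log2 scale. The 1 member that was higher was NR2F2, a nuclear receptor of atrial and venous cells that is also used in other embryonic tissues, with a log2 fold change of 1.86; it was named after its value was seen. The summed level of the whole list was 2035 to 2863 TPM in the wild-type libraries and 70.7 to 188 TPM in the PERK KO libraries.

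**Figure D1:**
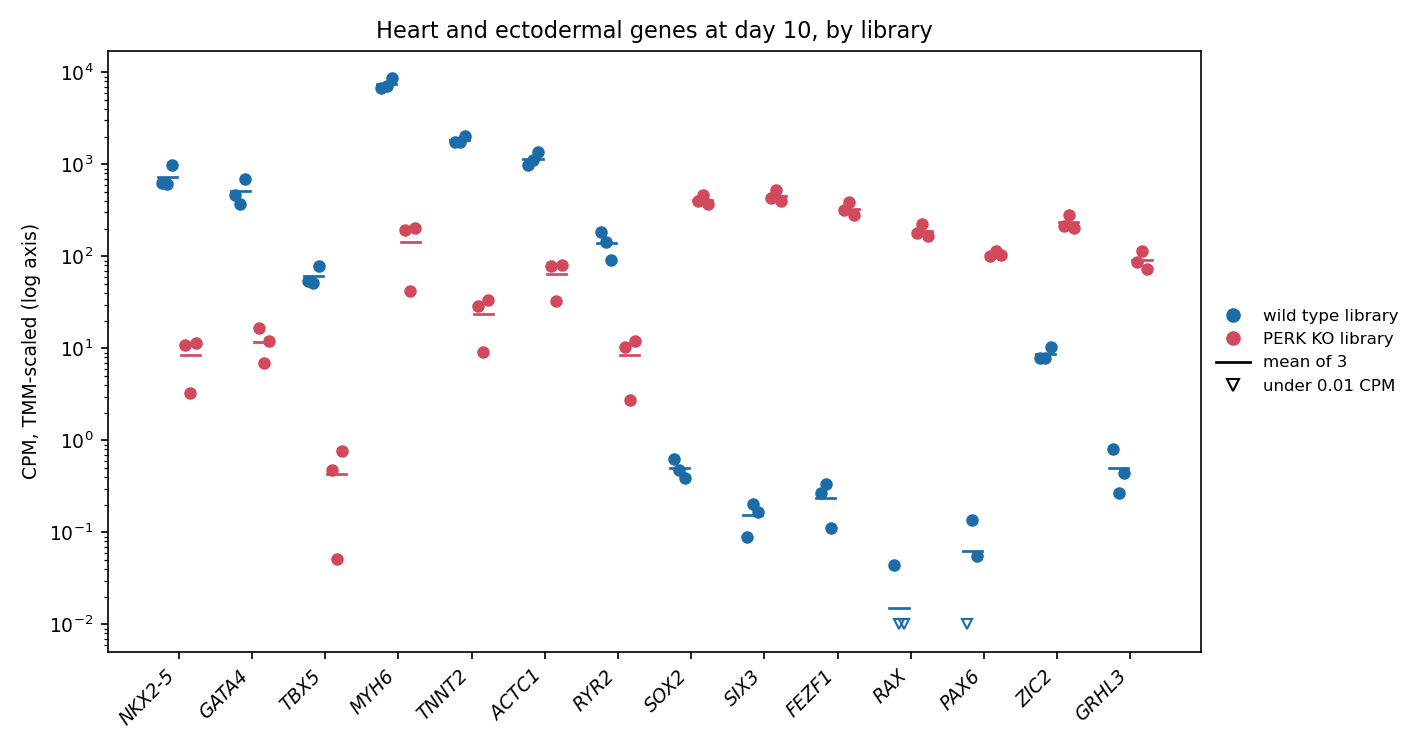
Levels of 14 genes in each day 10 library, in TMM-scaled CPM on a log axis; each point is 1 library, bars are means of 3, and open triangles mark libraries under 0.01 CPM. The 7 heart genes on the left are lower in every PERK KO library, and the 7 ectodermal genes on the right are higher in every PERK KO library.

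The contractile apparatus followed. All 11 thick filament and titin genes tested were lower (median -3.91), as were 15 of 17 thin filament and Z-disc genes (median -3.74), with 1 higher and 1 not called. MYH6, the alpha myosin heavy chain of embryonic and atrial muscle, was at 6793, 7147 and 8669 CPM in wild type and at 191, 42.6 and 201 CPM in PERK KO. The groups were well apart, the lowest PERK KO library again being replicate 2, and the log2 fold change was -5.70 ± 0.39 (adjusted p = 1.34e-13, edgeR's quasi-likelihood test with Benjamini-Hochberg adjustment). TNNT2, cardiac troponin T, was at 1736, 1742 and 2031 CPM against 28.8, 9.22 and 33.4 CPM, a log2 fold change of -6.27 ± 0.40. TNNI1, the troponin I isoform of the early heart, fell by 6.76 ± 0.40 on the log2 scale, and MYBPC3, which binds the thick filament, by 5.70 ± 0.41. ACTC1, cardiac alpha actin, was at 992, 1112 and 1349 CPM against 78.7, 32.9 and 80.4 CPM, a log2 fold change of -4.17 ± 0.29. TPM1, a tropomyosin expressed in many cell types, kept more of its level, with 408 to 422 CPM in PERK KO against 2825 to 3403 CPM in wild type. TTN, the giant elastic protein of the sarcomere, fell by 3.08 ± 0.49. TNNI3, the troponin I of the mature heart, was low in both groups, at 25.7 to 42.3 CPM against 16.04 to 20.3 CPM; its log2 fold change of -0.76 ± 0.27 was called, but it was not called with GC and length offsets (-0.13), without wild-type replicate 3 (-0.48) or without PERK KO replicate 3 (-0.66). TNNT1, the troponin T of slow skeletal muscle, went the other way, from 2.24, 5.33 and 3.13 CPM in wild type to 90.6, 101 and 85.4 CPM in PERK KO (log2 fold change 4.72 ± 0.29).

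The 250 bases before the start of TNNT2 and MYBPC3 are shown because both genes fell by more than 32-fold and both windows hold the letters bound by GATA factors. GATA4, GATA5 and GATA6 were also lower, and a link between these differences was not tested. The sequences are from RefSeq (GRCh38.p14), 5′ to 3′ on the strand of the gene, and capitals mark the match to AGATAA or its reverse complement.
TNNT2 (chr1:201377681-201377930, minus strand): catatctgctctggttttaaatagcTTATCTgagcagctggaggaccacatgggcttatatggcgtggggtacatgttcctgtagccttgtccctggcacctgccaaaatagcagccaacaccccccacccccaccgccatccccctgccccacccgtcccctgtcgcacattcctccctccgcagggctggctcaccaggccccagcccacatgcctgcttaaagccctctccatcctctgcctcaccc
MYBPC3 (chr11:47352703-47352952, minus strand): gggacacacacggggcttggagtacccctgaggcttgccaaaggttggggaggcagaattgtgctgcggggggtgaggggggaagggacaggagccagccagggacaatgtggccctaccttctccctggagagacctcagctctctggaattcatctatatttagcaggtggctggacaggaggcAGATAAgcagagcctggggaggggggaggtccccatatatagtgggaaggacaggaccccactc
AGATAA was searched on both strands. It was found in 4 of the 12 thin filament promoters and 2 of the 6 thick filament promoters that matched the table by symbol, in 2 of 14 promoters of cardiac transcription factors, in 2 of 11 of calcium handling genes, in none of 13 of cardiac ion channels, in none of 11 of cardiac energy genes, in 3 of 13 of primitive streak genes, in 1 of 10 of pluripotency genes, and in 9.37% of all 27305 promoters of the same length. AGATAA was also found in 1 of 21 neural plate and tube promoters, that of FEZF1, and in 1 of 6 surface ectoderm promoters, that of GRHL3. Both of these genes rose. The thin filament promoters with a match include that of TNNI3, whose fall was not called with GC and length offsets. A match describes the letters only and is not a binding site.

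Genes for excitation, calcium and energy supply moved less uniformly. Among 15 calcium handling and natriuretic peptide genes, 10 were lower, 2 were higher and 3 were not called (median -1.49). RYR2, the calcium release channel of the sarcoplasmic reticulum, was at 186, 144 and 90.7 CPM in wild type and at 10.3, 2.75 and 12.2 CPM in PERK KO, a log2 fold change of -4.05 ± 0.40. HRC and JPH2, which organise the same release units, fell by 4.60 ± 0.20 and 5.65 ± 0.28. ATP2A2, the calcium pump found in most cells, differed little, with 427 to 494 CPM in wild type and 299.6 to 320.5 CPM in PERK KO (-0.54 ± 0.14). The natriuretic peptide NPPA was low in both groups, at 0.944 to 2.33 CPM against 0.829 to 2.03 CPM, and was not called. Of 18 ion channel and gap junction genes, 11 were lower and 5 higher (median -2.74). The pacemaker channel HCN4 (-5.35 ± 0.29) and the calcium channels CACNA1C (-3.69 ± 0.25) and CACNA1D (-5.30 ± 0.30) fell. GJA1, the connexin of ventricular and many epithelial gap junctions, rose from 104, 95.6 and 53.3 CPM to 637, 702 and 585 CPM (2.92 ± 0.25). Of 15 genes of cardiac energy metabolism, 12 were lower and 2 higher (median -3.95). They include CKM, the muscle creatine kinase (-6.04 ± 0.35), FABP3, the heart fatty acid carrier (-5.47 ± 0.29), and PPARGC1A, a coactivator of mitochondrial genes (-5.40 ± 0.46).

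Factors of the neural plate had the highest median of the 44 lists, a rank that depends on members chosen with earlier results of these data known. Of 21 neural plate and tube factors tested, 19 were higher in PERK KO, none lower and 2 not called, with a median log2 fold change of 7.10, or 6.16 with the 3 members that had no count in wild type set at their lower bound. SIX3, which sets up forebrain and eye, was at 0.0896, 0.202 and 0.168 CPM in wild type and at 434, 530 and 400.5 CPM in PERK KO. No library of one group came near the other, and the log2 fold change was 11.54 ± 0.39 (adjusted p = 1.54e-20, edgeR's quasi-likelihood test with Benjamini-Hochberg adjustment). RAX, the retinal homeobox gene of the eye field, had 1 count over the 3 wild-type libraries and 11619 over the PERK KO libraries, where it was at 178, 227 and 165 CPM. The ratio was 10390, with a 95% counting interval of 1864 to 410200 that covers counting error only. PAX6, which serves eye and forebrain, had 3 counts against 6519 (ratio 1942, interval 664.3 to 9421). FEZF1, a forebrain zinc finger factor, rose from 0.112 to 0.337 CPM to 280 to 390 CPM (10.40 ± 0.28). OTX2, a forebrain and midbrain factor that pluripotent cells also express, and ZIC2 started from measurable wild-type levels and rose by 2.94 ± 0.11 and 4.76 ± 0.15. SOX1, a marker of committed neural plate, had no count in wild type and only 0.129 to 0.367 CPM in PERK KO. The summed level of the list was 43.7 to 56.7 TPM in wild type and 1493 to 1854 TPM in PERK KO.

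Genes of differentiated neurons were for the most part low or not called. Of 16 neuronal genes tested, 6 were higher, 2 lower and 8 not called (median 0.61). MAP2, a dendritic microtubule protein also made in neural progenitors, rose from 0.941 to 1.01 CPM to 127 to 177 CPM (7.23 ± 0.41), and the beta tubulin TUBB3 rose by 1.78 ± 0.24. DCX and STMN2, which mark young postmitotic neurons, were not called, at 5.70 to 10.6 and 0.0518 to 0.172 CPM in PERK KO; with GC and length offsets DCX was called lower (-0.55). Of 14 radial glia genes, 9 were higher and 4 lower (median 1.47), but their summed level was lower, at 781 to 849 TPM in PERK KO against 1842 to 2073 TPM in wild type. The progenitor genes TTYH1 (7.83 ± 0.29), PTPRZ1 (7.48 ± 0.47) and FABP7 (5.53 ± 0.38, and 6.71 without wild-type replicate 1) rose. VIM, the intermediate filament of mesenchyme and progenitors, fell from 1739, 2026 and 1968 CPM to 144, 127 and 138 CPM (-3.81 ± 0.16), and NES fell by 0.78 ± 0.14, a difference of -0.20 that was not called with GC and length offsets.

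Surface ectoderm genes were mostly higher as well, but their summed level was not. Of 17 surface ectoderm and placode genes tested, 12 were higher, 1 lower and 4 not called (median 2.89). The summed level of the list overlapped, at 2675 to 3312 TPM in wild type and 2909 to 3064 TPM in PERK KO. GRHL3, a grainyhead factor of the early epidermis and the closing neural tube, was at 0.807, 0.270 and 0.447 CPM in wild type and at 86.3, 115 and 73.0 CPM in PERK KO. All PERK KO libraries lay above all wild-type libraries, with a log2 fold change of 7.40 ± 0.31. DLX5, a homeobox factor of the plate border and placodes, rose by 7.22 ± 0.38, TFAP2C by 5.78 ± 0.33 (6.97 without wild-type replicate 1) and the epithelial cadherin CDH1 by 3.66 ± 0.18. The keratins KRT8 and KRT18 of simple epithelia were not called (-0.09 ± 0.23 and 0.01 ± 0.25) but were called higher with GC and length offsets (0.46 and 0.54), KRT19 fell by 1.83 ± 0.28, and TP63, the master factor of stratified epidermis, stayed at 0.777 to 2.31 CPM although it was called higher. Neural crest genes were split, with 6 of 15 higher and 7 lower (median -1.20): SOX10 (3.86 ± 0.30), PAX7 (5.76 ± 0.37, and 6.51 without wild-type replicate 3) and TFAP2A (4.06 ± 0.35) rose, while the migratory crest and mesenchyme factors SNAI2 (-3.59 ± 0.31), TWIST1 (-3.93 ± 0.33) and MSX1 (-5.18 ± 0.32) fell. FOXD3, an early crest factor, was not called, at 0, 0 and 0.112 CPM in wild type and with no count in PERK KO.

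**Figure D2:**
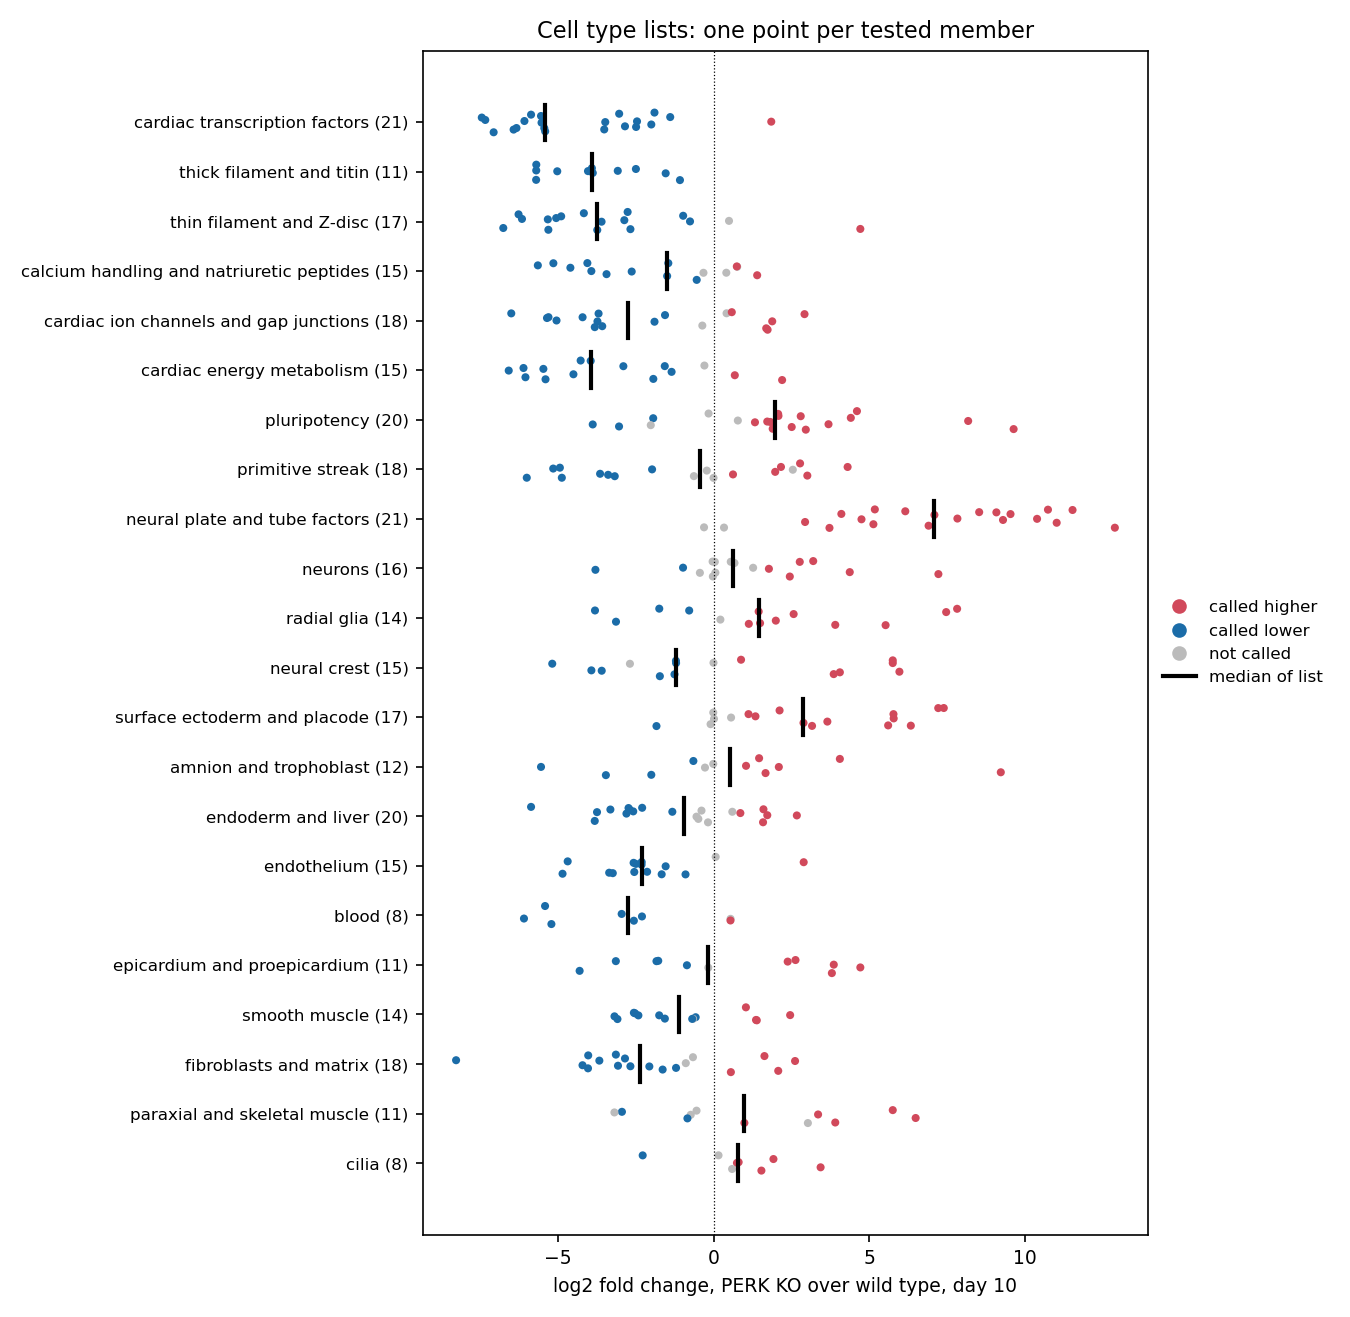
Log2 fold change of PERK KO over wild type at day 10 for each tested member of 22 cell type lists (number tested in brackets), with the median of each list as a black bar. The medians of the cardiac lists lie to the left of 0, and that of the neural plate list, 7.10, to the right.

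Pluripotency genes did not move as a block. Of 20 tested, 14 were higher, 3 lower and 3 not called (median 1.99), and their summed level was 267 to 339 TPM in wild type and 1411 to 1450 TPM in PERK KO. SOX2, a factor shared by stem cells and neural plate, was at 0.627, 0.472 and 0.391 CPM in wild type and at 395, 470 and 367 CPM in PERK KO (9.65 ± 0.32). POU5F1, restricted to stem cells and germ cells, was at 3.94, 2.36 and 1.29 CPM against 22.02, 14.9 and 23.6 CPM (2.97 ± 0.28). The groups did not overlap, yet the PERK KO mean of 20.2 CPM at day 10 compares with 946 CPM in PERK KO at day 5. NANOG was at 0.104 to 0.157 CPM in PERK KO and was not called. LIN28A, an RNA-binding protein of early embryonic cells, rose from 156 to 215 CPM to 1299 to 1314 CPM, and the methyltransferase DNMT3B rose by 2.09 ± 0.16. TDGF1, the NODAL co-receptor, fell by 3.04 ± 0.20.

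Mesodermal and endodermal genes moved in both directions. Of 18 primitive streak genes, 6 were higher, 8 lower and 4 not called (median -0.42), with log2 fold changes of up to 4.31. Their summed level was 82.5 to 100 TPM in wild type and 152 to 203 TPM in PERK KO. In CPM the sums overlapped, at 82.3 to 115 against 71.8 to 93.6. MIXL1 (12.01, 15.5 and 14.5 CPM against 0.262, 0.207 and 0.172 CPM), EOMES and MESP1 fell, by 6.00 ± 0.27, 5.15 ± 0.27 and 4.88 ± 0.47 on the log2 scale, and TBXT had no count in any of the 6 libraries. Of 11 paraxial and skeletal muscle genes, 5 were higher, 2 lower and 4 not called (median 0.99). Of 20 endoderm and liver genes, 10 were lower and 5 higher (median -0.94). APOA1, an apolipoprotein of liver and yolk sac, was at 802, 1243 and 1001 CPM in wild type against 116, 70.2 and 120 CPM, and FOXA2 (-3.75 ± 0.24), SOX17 (-3.82 ± 0.28) and HNF4A (-2.58 ± 0.25) fell. AFP, the fetal serum protein, rose from 27.5 to 50.3 CPM to 154 to 279 CPM (2.68 ± 0.37). The wild-type libraries thus held 4275 to 5219 TPM of endoderm genes beside their cardiac genes, and the part of these other cells in each difference was not tested. Of 15 endothelial genes, 13 were lower (median -2.31), among them KDR, the VEGF receptor of progenitors and endothelium (545, 404 and 455 CPM against 23.6, 9.33 and 21.4 CPM). VWF was the exception, at 2.11 to 5.31 CPM in wild type and 26.6 to 31.8 CPM in PERK KO.

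Extracellular matrix genes were mostly lower. Of 18 fibroblast and matrix genes tested, 12 were lower and 4 higher (median -2.37). FN1, fibronectin, was at 20340, 27080 and 21040 CPM in wild type and at 1614, 816 and 1266 CPM in PERK KO (-4.21 ± 0.26). COL3A1, the fibrillar collagen of soft tissue, was at 1883, 1182 and 2034 CPM against 6.24, 2.49 and 7.63 CPM, with no overlap and a log2 fold change of -8.28 ± 0.44. COL1A1, COL1A2 and SPARC fell by 3.07 ± 0.22, 4.04 ± 0.18 and 2.67 ± 0.13. Of 14 smooth muscle genes, 9 were lower and 4 higher (median -1.12); ACTA2 fell by 2.52 ± 0.23 while the kinase MYLK rose by 2.46 ± 0.22. HOX genes, which encode position along the trunk, reached the tested set for only 11 of 25 members, and 8 of these were lower and none higher. In a fit of the 6 compared libraries alone only 3 were lower. Its filter used those libraries and can drop members with few counts. The summed level of the list was 58.7 to 87.3 TPM in wild type and 0.43 to 2.71 TPM in PERK KO. Genes with few counts were not tested, so the lack of higher calls carries little weight. HOXB2, HOXB3 and HOXB4 were above 8 CPM in every wild-type library, and HOXB3 was at 44.4, 33.6 and 49.2 CPM in wild type and at 0.315, 0.207 and 0.345 CPM in PERK KO (-7.15 ± 0.32). The median of the 11 was -4.33, or -2.66 with the 3 members that had no count in PERK KO set at their bound.

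Signalling genes were tested as 6 lists. Of 22 BMP, NODAL and TGF-beta genes, 17 were lower, 1 was higher and 4 were not called (median -1.96). Both ligands and feedback targets were among those lower: BMP2 (337, 278 and 373 CPM against 37.0, 27.6 and 38.8 CPM), TGFB1 (-5.13 ± 0.22), the inhibitory SMADs SMAD6 (-3.63 ± 0.20) and SMAD7 (-3.59 ± 0.16), and the targets ID2 (-1.82 ± 0.15) and ID3 (-1.99 ± 0.27). ID4, which is active in neural progenitors, was the 1 member higher (1.22 ± 0.16). Of 23 WNT genes, 14 were lower and 6 higher (median -1.61). The ligand WNT11, which guides heart morphogenesis, fell by 6.19 ± 0.44, and the transcriptional targets AXIN2 and LEF1 by 1.49 ± 0.13 and 3.13 ± 0.21. The receptor FZD5, known from the eye field, rose from 55.0, 74.1 and 44.5 CPM to 1024, 1237 and 957 CPM, and the secreted modulator SFRP2 from at most 0.627 CPM to 218 to 252 CPM.

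Retinoic acid genes included 8 higher and 6 lower of 16 tested (median 0.77). The degrading enzyme CYP26C1 was at no more than 0.0674 CPM in wild type and at 94.7, 41.4 and 176 CPM in PERK KO. The PERK KO libraries thus differed among themselves, replicate 2 being lowest, and CYP26A1, a related enzyme, had the same order, at 41.6, 17.4 and 67.8 CPM. The binding protein CRABP1 rose by 6.19 ± 0.29 and the synthetic enzyme ALDH1A3, of the optic region, by 5.89 ± 0.36 (7.46 without wild-type replicate 1). Of 18 FGF genes, 9 were higher and 7 lower (median 0.19); FGF8 (1.98 ± 0.25), FGF2 (4.10 ± 0.36), ETV4 (2.04 ± 0.18) and SPRY1 (2.45 ± 0.13) rose while SPRY4 (-1.29 ± 0.17) fell. NOTCH genes were 8 higher and 4 lower of 16 (median 0.57), with the ligand DLL1 rising by 2.00 ± 0.17 and JAG1 falling by 2.74 ± 0.15. Hedgehog genes were evenly split, with 4 of 12 higher, 4 lower and 4 not called (median 0.25). GLI3 and GAS1 rose by 1.496 ± 0.24 and 2.18 ± 0.21, and GLI1, a direct target of the pathway, fell by 2.38 ± 0.27.

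The stress response that PERK feeds was lower at the level of its transcription factors. Of 10 such factors tested, 7 were lower, 1 was higher and 2 were not called, with a median log2 fold change of -1.22, or -0.57 with GC and length offsets, under which the counts of calls stayed at 7 and 1. ATF4, the central factor, was at 419, 578 and 492 CPM in wild type and at 226, 208 and 214 CPM in PERK KO. The PERK KO libraries were close to each other and below all wild-type libraries, with a log2 fold change of -1.20 ± 0.18 (adjusted p = 1.20e-06, edgeR's quasi-likelihood test with Benjamini-Hochberg adjustment). DDIT3, known as CHOP and linked to cell death under prolonged stress, was at 22.2, 42.6 and 22.97 CPM against 2.15, 2.33 and 2.24 CPM (-3.70 ± 0.28). ATF3 fell by 2.96 ± 0.19 and TRIB3, a pseudokinase that restrains ATF4, by 1.43 ± 0.22, or 0.74 with the offsets. CEBPG, a dimer partner of ATF4, rose by 0.98 ± 0.18. For DDIT3 and ATF3 the highest of the 6 libraries was wild-type replicate 2, and the lowest wild-type library still exceeded every PERK KO library several times over.

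Of 12 stress effector genes downstream of ATF4, 8 were lower, 1 higher and 3 not called (median -1.85). CHAC1, which degrades glutathione, was at 10.5, 21.4 and 14.0 CPM in wild type and at 1.62, 1.61 and 2.11 CPM in PERK KO (-3.08 ± 0.27). HERPUD1, which serves degradation of misfolded proteins, was at 61.7, 82.2 and 70.9 CPM against 15.9, 10.9 and 13.6 CPM (-2.41 ± 0.20). VEGFA, DDIT4 and GDF15, which also answer to hypoxia or p53, fell by 2.26 ± 0.12, 2.00 ± 0.28 and 2.54 ± 0.27. The genes for amino acid supply did not share this direction. Of 13 synthesis genes, 3 were higher, 5 lower and 5 not called (median -0.11): ASNS, asparagine synthetase and a standard readout of ATF4, was at 28.9, 46.8 and 29.3 CPM against 37.8, 32.6 and 33.9 CPM, with overlapping groups (-0.01 ± 0.15, adjusted p = 0.969 in edgeR's quasi-likelihood test with Benjamini-Hochberg adjustment). PSAT1, of serine synthesis, rose from 25.8 to 31.0 CPM to 88.3 to 91.2 CPM (1.69 ± 0.10), while GOT1, the cytosolic aspartate aminotransferase, fell from 312, 390 and 387 CPM to 37.2, 35.3 and 39.1 CPM (-3.29 ± 0.18). Of 11 amino acid transporters, 7 were lower and 3 higher (median -0.92). SLC7A11, the cystine importer, was the largest gain among them, from 2.20, 2.36 and 0.671 CPM to 60.2, 67.2 and 62.2 CPM; its log2 fold change of 5.18 ± 0.43 was 3.87 with GC and length offsets. Of 13 aminoacyl-tRNA synthetases, 5 were higher and 6 lower (median 0.19).

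Promoters of 4 of these genes are shown because they hold the same letters of the ATF4 composite element, TGATGNAA, while their mRNA moved differently: CHAC1, HERPUD1 and GOT1 fell and ASNS was not called. Each is the 250 bases before the start in RefSeq (GRCh38.p14), 5′ to 3′ on the strand of the gene, with the match on either strand in capitals.
CHAC1 (chr15:40953221-40953470, plus strand): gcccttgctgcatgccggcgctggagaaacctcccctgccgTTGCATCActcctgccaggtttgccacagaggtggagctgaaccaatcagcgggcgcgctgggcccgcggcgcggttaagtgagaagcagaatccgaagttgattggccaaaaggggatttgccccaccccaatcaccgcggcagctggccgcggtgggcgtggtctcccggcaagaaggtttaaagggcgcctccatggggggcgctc
HERPUD1 (chr16:56931892-56932141, plus strand): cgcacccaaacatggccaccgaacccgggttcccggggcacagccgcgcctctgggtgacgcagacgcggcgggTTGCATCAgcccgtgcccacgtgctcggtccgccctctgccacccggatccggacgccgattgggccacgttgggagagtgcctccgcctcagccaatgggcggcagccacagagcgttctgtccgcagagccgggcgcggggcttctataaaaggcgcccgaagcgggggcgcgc
GOT1 (chr10:99430625-99430874, minus strand): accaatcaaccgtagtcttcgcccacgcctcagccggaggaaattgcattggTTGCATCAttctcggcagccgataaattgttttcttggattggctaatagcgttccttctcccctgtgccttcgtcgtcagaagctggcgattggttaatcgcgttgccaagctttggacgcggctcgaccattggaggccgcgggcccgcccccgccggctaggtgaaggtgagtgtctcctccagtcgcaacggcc
ASNS (chr7:97872409-97872658, minus strand): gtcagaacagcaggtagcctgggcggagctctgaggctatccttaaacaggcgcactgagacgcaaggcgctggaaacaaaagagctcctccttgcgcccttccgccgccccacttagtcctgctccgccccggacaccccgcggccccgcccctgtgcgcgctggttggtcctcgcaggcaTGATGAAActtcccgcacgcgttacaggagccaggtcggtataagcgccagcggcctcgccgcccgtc
The first 3 genes carry the match on the opposite strand, as TTGCATCA, and ASNS carries it as TGATGAAA. TGATGNAA was found in 3 of 11 stress effector promoters matched by symbol, in 2 of 8 amino acid synthesis promoters, in 1 of 9 promoters of the stress factors, in none of 9 amino acid transport promoters, not in the 1 aminoacyl-tRNA synthetase promoter matched, and in 3.19% of all 27305 promoters of the same length. The match is a description of the letters and says nothing about binding by ATF4 in these cells.

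Of 10 eIF2 kinase and phosphatase genes, 3 were higher, 3 lower and 4 not called (median -0.03); with GC and length offsets 1 was higher and 5 lower. EIF2AK4 and EIF2AK1, the sensors of amino acid and heme shortage, were not called (-0.05 ± 0.12 and -0.11 ± 0.12). EIF2AK2, the sensor of double-stranded RNA, rose from 32.2, 20.98 and 15.9 CPM to 66.6, 64.8 and 64.5 CPM (1.5 ± 0.30), a difference that was 0.43 with GC and length offsets. PPP1R15A, the stress-induced subunit that directs dephosphorylation of eIF2, fell from 153, 291 and 197 CPM to 36.9, 41.2 and 35.1 CPM (-2.50 ± 0.17), and its constitutive counterpart PPP1R15B by 0.48 ± 0.13, though it was not called in a fit of the 6 compared libraries alone (-0.43). In the parallel IRE1 and ATF6 arms of the unfolded protein response, 8 of 12 genes were lower and 1 was higher (median -0.88). XBP1, the factor spliced by IRE1, fell by 1.37 ± 0.19 and the collagen-linked factors CREB3L1 and CREB3L2 by 1.64 ± 0.17 and 1.92 ± 0.19. ATF6 rose by 0.49 ± 0.15, but was at -0.22 and not called with the offsets. Of 18 chaperones of the endoplasmic reticulum, 6 were higher, 7 lower and 5 not called (median -0.19); without wild-type replicate 2 only 4 were lower. HSPA5, the BiP chaperone, was at 543, 943 and 444 CPM against 390, 422 and 357 CPM (-0.72 ± 0.18); without wild-type replicate 2, the highest library, the difference was -0.34 and not called. HSP90B1, its partner GRP94, rose from 325, 313 and 149 CPM to 840, 930 and 856 CPM (1.74 ± 0.26), or 1.11 with the offsets. Calreticulin (CALR) fell by 0.50 ± 0.17 but was not called without wild-type replicate 2 (-0.36) or with the offsets (-0.08), and PDIA3 was not called (0.02 ± 0.10) but was lower with the offsets (-0.35).

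**Figure D3:**
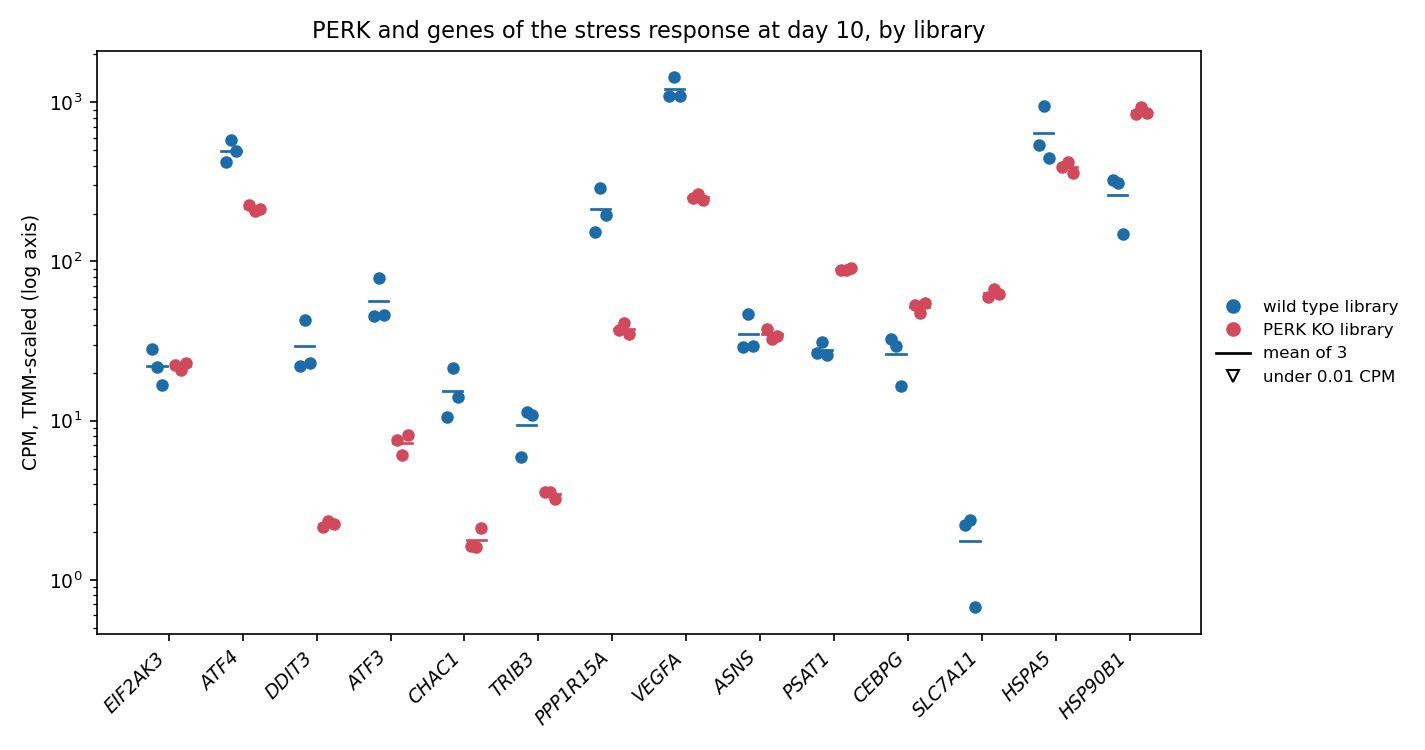
Levels of EIF2AK3 and 13 genes of the stress response in each day 10 library, in TMM-scaled CPM on a log axis; points are libraries and bars are means of 3. EIF2AK3 and ASNS overlap between the genotypes, ATF4 to VEGFA are lower in PERK KO, and PSAT1, CEBPG, SLC7A11 and HSP90B1 are higher.

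Genes of cell division were higher in PERK KO. Of 20 DNA replication genes, 17 were higher, 1 lower and 2 not called (median 1.46), and of 20 mitosis genes, 16 were higher, none lower and 4 not called (median 1.28). PCNA, the sliding clamp of the replication fork, was at 15.8, 10.5 and 13.6 CPM in wild type and at 84.5, 77.0 and 90.6 CPM in PERK KO (2.65 ± 0.17). MKI67, the common proliferation marker, was at 70.2, 32.4 and 41.3 CPM against 290, 300.2 and 290 CPM (2.61 ± 0.45), and CENPF, a kinetochore protein, at 19.1, 11.2 and 11.8 CPM against 344, 368 and 327 CPM (4.62 ± 0.44). The groups did not overlap for any of these genes. The 4 mitosis genes not called were AURKA, PLK1, CDC20 and CENPA, named after their values were seen, at 0.10 to 0.36 on the log2 scale; without wild-type replicate 3, PLK1 (0.46) and CDC20 (0.65) were called higher, and with GC and length offsets so were PLK1 (0.71), CDC20 (0.99) and CENPA (0.33). CDC20 and CENPA were also called higher with a stricter filter (0.42 and 0.30). CCNE1, the cyclin of the G1 to S transition, was the 1 replication gene that fell (-0.44 ± 0.16), and it lost its call under 6 of the 15 alternatives, among them without wild-type replicate 3 (-0.30), without PERK KO replicate 2 (-0.36), in the compared libraries alone (-0.37) and with the offsets (-0.07). Of 18 CDK inhibitors and p53 targets, 10 were lower and 5 higher (median -0.61). CDKN1C, a CDK inhibitor that acts at cell cycle exit in many embryonic tissues, fell from 522, 608 and 633 CPM to 98.7, 90.5 and 94.7 CPM (-2.63 ± 0.24). CDKN1B and CDKN1A fell by 1.47 ± 0.14 and 1.03 ± 0.20.

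Nuclear genes of the respiratory chain were lower almost throughout. Of 28 tested, 25 were lower, none higher and 3 not called (median -1.36), and their summed level was 12360 to 12840 TPM in wild type and 5699 to 5830 TPM in PERK KO. SDHA, the catalytic subunit of complex II, was at 284, 351 and 377 CPM against 44.1, 39.5 and 41.1 CPM (-3.02 ± 0.15), and ATP5F1B, of the ATP synthase, at 1614, 2050 and 2323 CPM against 568, 578 and 542 CPM (-1.83 ± 0.18). The share of mitochondrially encoded transcripts given above moved in the same direction. Of 23 glycolysis and hypoxia genes, 14 were lower and 2 higher (median -0.81): HK1, PFKP and PDK1 fell by 2.08 ± 0.14, 2.02 ± 0.14 and 2.62 ± 0.16, LDHA was not called (0.02 ± 0.17), and PGK1 rose by 0.63 ± 0.21, or 0.16 and not called with GC and length offsets. Of 22 cholesterol synthesis genes, 19 were lower and none higher (median -1.40). INSIG1, which holds back sterol-driven transcription, was at 396, 630 and 302 CPM against 39.3, 39.5 and 34.5 CPM (-3.55 ± 0.19), and SQLE, squalene epoxidase, fell by 1.97 ± 0.11. HMGCS1 was called lower (-0.72 ± 0.21) although its libraries overlapped, wild-type replicate 3 being at 157 CPM and the PERK KO libraries at 155 to 178 CPM.

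**Figure D4:**
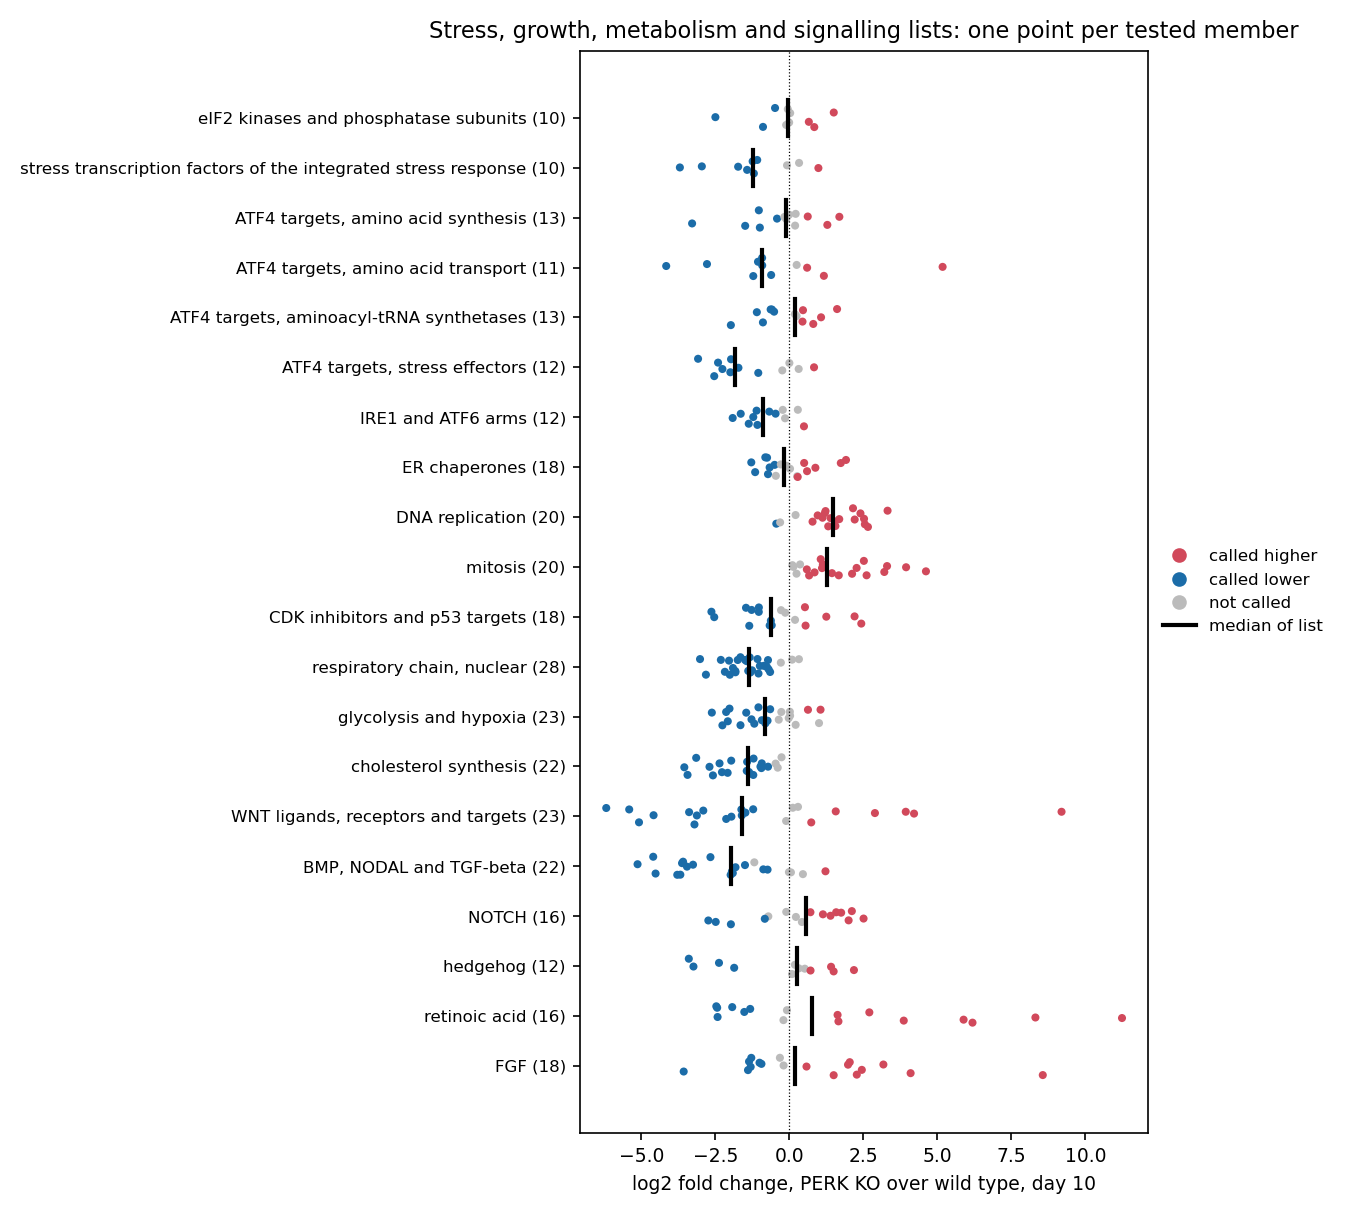
Log2 fold change of PERK KO over wild type at day 10 for each tested member of 20 lists of stress, growth, metabolism and signalling genes, with the median of each list as a black bar. The medians of the replication and mitosis lists (1.46 and 1.28) lie to the right of 0, and those of the respiratory chain, cholesterol and BMP lists to the left.

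The largest changes with a mean of at least 5 CPM in a group and no overlap of libraries were chosen by size. The 12 largest gains included the forebrain, eye or neural tube transcription factors RAX, LHX5, SIX3, LMX1A, PAX6 and FEZF1, the enzyme CYP26C1, and 4 genes for signalling or membrane proteins. ARHGEF38, a guanine nucleotide exchange factor, was at 22.6, 21.04 and 21.8 CPM in PERK KO with no count in wild type, hence at least 399.8-fold higher against a floor of 3 counts over the group; its adjusted p was 7.21e-09 in edgeR's quasi-likelihood test with Benjamini-Hochberg adjustment and 0.181 in DESeq2. On the same floor SLITRK1, a synaptic adhesion protein, was at least 291.7-fold, LMX1A, a roof plate and midbrain factor, at least 222.9-fold and the potassium channel subunit KCNG3 at least 194.6-fold higher. GPR50, an orphan receptor related to melatonin receptors, had 1 count against 1570.

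Among the 12 largest losses, heart genes were again present. RRAD, a small GTPase that restrains calcium channels, was at 181, 259 and 263 CPM in wild type and at 0.262, 0.311 and 0.690 CPM in PERK KO (-9.05 ± 0.41, and -9.65 without PERK KO replicate 3). LRRC10, a leucine-rich repeat protein of cardiomyocytes, was at 45.7, 34.1 and 61.6 CPM against 0.157, 0 and 0.129 CPM (-8.83 ± 0.48), and FBXO40, a muscle F-box protein, had 1161 counts against 2. TRH, which encodes thyrotropin-releasing hormone, was at 306, 308 and 472 CPM against 1.10, 0.363 and 1.16 CPM (-8.66 ± 0.42). The complement gene C7 fell by 9.03 ± 0.42 and the potassium channel KCNK3 went from 797 counts to 1. PGA3, a pepsinogen, has near-identical copies, so its value is uncertain. CTSF, a lysosomal cathepsin, was the largest loss of all by fitted fold, with 31.4, 37.5 and 46.4 CPM in wild type and 2 counts in all PERK KO libraries. It was already apart at day 0, at 14.9 ± 0.86 CPM in wild type and 0.0801 ± 0.0695 CPM in PERK KO.

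Whether the difference between genotypes at day 10 differed from that at day 5 was tested as an interaction in the same fit. Of the genes tested, 7615 were called, or 38.5%, with 4006 having a more positive difference at day 10 (20.3%) and 3609 a more negative one (18.3%). The median shift over all genes was 0.10 on the log2 scale. Among cardiac transcription factors 15 of 21 shifted upward and 2 downward (median 2.23). For a gene lower in PERK KO on both days, an upward shift is a smaller deficit. The other heart lists were less uniform. Upward and downward shifts numbered 4 and 2 of 11 thick filament genes (median 0.68) and 4 and 4 of 17 thin filament genes (0.10). They numbered 6 and 3 of 15 calcium handling genes (0.77), 5 and 7 of 18 ion channel genes (-0.64), and 0 and 8 of 15 energy genes (-1.25). NKX2-5 went from 126 ± 38.6 CPM (SD, n = 3) at day 5 to 738 ± 205 CPM at day 10 in wild type, and from 0.264 ± 0.180 to 8.55 ± 4.58 CPM in PERK KO. MYH6 in PERK KO went from 1.79 ± 0.54 to 145 ± 88.8 CPM, against 3683 ± 765 and 7536 ± 997 CPM in wild type. Both genes were thus detected in PERK KO at day 10, at levels far below wild type and lowest in replicate 2.

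Differences in neural plate factors were larger at day 10. Among neural plate factors 13 of 21 had a more positive difference at day 10 and none a more negative one (median 3.99). RAX in PERK KO was at 1.09 ± 0.86 CPM at day 5 and at 190 ± 32.7 CPM at day 10, and PAX6 at 0.828 ± 0.113 and 106 ± 7.75 CPM. FEZF1 (142 ± 15.2 CPM at day 5) and SIX3 (111 ± 12.5 CPM) were already expressed in PERK KO at day 5. Surface ectoderm genes shifted upward in 12 of 17 and downward in 2 (median 2.15). Pluripotency genes shifted both ways, 5 upward and 8 downward of 20 (median -0.31). TDGF1 changed sides: it was at 335 ± 12.8 CPM in PERK KO and 25.9 ± 3.27 CPM in wild type at day 5, and at 1.87 ± 1.00 and 15.4 ± 1.47 CPM at day 10, an interaction of -6.73 ± 0.27. Replication and mitosis genes shifted upward in 15 and 12 of 20, none downward, and respiratory chain genes downward in 24 of 28, none upward (medians 0.97, 0.98 and -1.12).

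**Figure D5:**
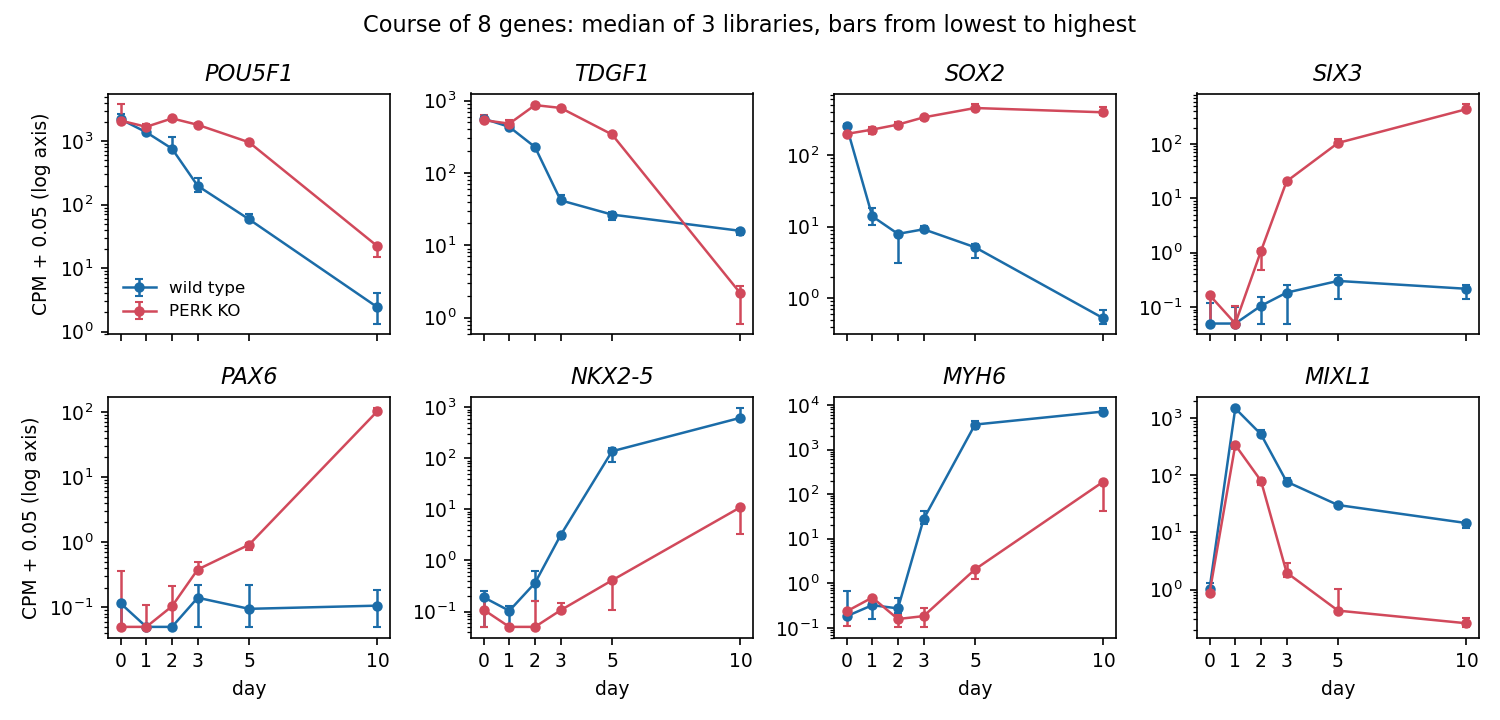
Levels of 8 genes at days 0, 1, 2, 3, 5 and 10, as the median of 3 libraries in CPM with 0.05 added on a log axis; bars run from the lowest to the highest library. POU5F1 and TDGF1 are far above wild type in PERK KO at day 5 and lower in PERK KO at day 10 than at day 5, while SIX3 and PAX6 are higher in PERK KO and NKX2-5 and MYH6 lower at day 10.

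Among protein-coding genes with a mean of at least 5 CPM in a group, the smallest p of the interaction was that of SCUBE1, which encodes a secreted EGF repeat protein. SCUBE1 was at 34.5 ± 3.70 CPM in wild type and 1.94 ± 0.17 CPM in PERK KO at day 5, and at 5.12 ± 0.76 and 112 ± 6.75 CPM at day 10, an interaction of 8.62 ± 0.24 (adjusted p = 8.29e-22, edgeR's quasi-likelihood test with Benjamini-Hochberg adjustment). The order of the genotypes was thus opposite on the 2 days. The actin-binding protein gene ENC1 showed the same exchange, from 163 ± 20.3 against 11.1 ± 0.20 CPM to 32.9 ± 9.26 against 441 ± 80.8 CPM. COL2A1, the collagen of cartilage and of the early neural tube, stayed at 1105 ± 92.6 and 1084 ± 196 CPM in wild type and went from 4.08 ± 0.46 to 569 ± 103 CPM in PERK KO; its lower level in PERK KO at day 10 was not called with GC and length offsets (-0.26). VAT1L and FAM189A2 exchanged order the other way, VAT1L going in PERK KO from 80.0 ± 7.54 to 12.4 ± 0.39 CPM while wild type went from 3.90 ± 0.69 to 24.9 ± 0.89 CPM.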

How the data were processed

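RNA-seq of H1 and PERK KO cells was analysed from the series' matrix of gene-level expected counts. The authors estimated the expected counts and the TPM values per gene with RSEM, and CASAVA, FastQC, STAR and the builds GRCh38 and hg38 are also named, all per the submitters' processing notes, which give no versions. The deposited TPM values were used only for sums over gene lists. All 58721 gene IDs matched GENCODE release 29. Groups came from the sample labels.

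Expected counts were rounded to whole numbers, genes with low counts were removed with filterByExpr, and libraries were scaled by TMM. edgeR 4.0.16 (R 4.3.3) was fitted to all 36 libraries in 12 groups, without a replicate block, and the contrasts were tested with its quasi-likelihood F test with Benjamini-Hochberg adjustment over all 19772 genes, called at an adjusted p under 0.05. The common biological coefficient of variation was 18.7%. Standard errors were derived from the F statistics. CPM are TMM-scaled. For a group with no count, a fold is a lower bound against 3 counts over the group, and for 1 to 3 counts it carries an exact 95% interval. These cover counting error only. Only the day 10 contrast was run on simulated counts, in which few genes were changed, unlike in these data. The interaction was not simulated.

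The 44 gene lists (665 distinct members tested) and the members were chosen with earlier results of these data known. Genes named are the first 6 of a list, its 6 smallest p, the 12 largest changes each way with at least 5 CPM in a group and no overlap, and the 8 smallest p of the interaction; others are said to have been chosen after their values were seen. Promoters were taken from RefSeq (GRCh38.p14) by symbol. Alternatives were DESeq2 1.42.0, RLE scaling, 2 other filters, the compared libraries alone, the replicate block, each compared library left out in turn, 2 libraries of other days (replicate 3 of H1 day 2, replicate 2 of PERK KO day 0) left out together, and GC and length offsets. Some items are not reported here.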

Additional observations from a re-analysis of the deposited data

Results flagged for a closer look

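For 8 genes the difference between genotypes at day 10 differed from that at day 5 in the test of that difference itself, and they are the 8 smallest p of that test among protein-coding genes with at least 5 CPM in a group. On the log2 scale the day 10 difference minus the day 5 difference was 8.62 for SCUBE1, 5.63 for TPBG, 7.63 for ENC1, -7.63 for UAP1L1, -5.36 for VAT1L, -6.73 for TDGF1, -5.47 for FAM189A2 and 7.15 for COL2A1. The adjusted p ran from 8.29e-22 to 6.22e-18 (edgeR's quasi-likelihood test with Benjamini-Hochberg adjustment). For SCUBE1, TPBG, ENC1, UAP1L1, VAT1L, TDGF1 and FAM189A2, the genotype with the higher mean at day 5 had the lower mean at day 10. UAP1L1, a relative of a sugar nucleotide enzyme, was at 7.27 ± 0.83 CPM in wild type and 17.1 ± 2.23 CPM in PERK KO at day 5 (SD, n = 3), and at 189 ± 30.8 and 2.22 ± 0.24 CPM at day 10. TPBG, a trophoblast glycoprotein that modulates WNT signalling, was at 38.0 ± 0.60 and 27.1 ± 2.55 CPM at day 5, and at 17.8 ± 1.46 and 627 ± 121 CPM at day 10. Both days compare separate libraries, and nothing was tested on why these genes differ.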

How the results depend on the processing

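Neither contrast's count of calls moved by more than 1.5 times under any of the 15 alternatives for day 10 or those for the interaction. With each compared library left out in turn, 6104 to 6487 genes were higher and 6232 to 6625 lower at day 10, and 3554 to 4120 and 3276 to 3613 in the interaction. The other alternatives gave 6335 to 7212 and 5926 to 7239 at day 10, and 3821 to 5054 and 3397 to 4593 in the interaction, of which 7212, 7239 and 5054 came from leaving out replicate 3 of H1 day 2 together with replicate 2 of PERK KO day 0. Same-numbered libraries of the genotypes did not deviate together (correlations 0.0138, 0.0487 and -0.0127), so the numbers were not taken to pair the samples. With the replicate block among the compared libraries 6335 genes were higher and 5926 lower at day 10, and with the replicate block in all groups 6645 and 6704. With the block among the compared libraries PPP1R15B (-0.40) and CCNE1 (-0.37) were no longer called and CDC20 (0.46) was called higher.

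List members were counted under alternatives only in the direction with more calls in each list, or higher where the directions were equal. Of these 660 counts, 7 in 5 lists moved by more than 1.5 times. Counts in the other direction were not compared. Of 2764 values of named genes, 2731 kept their side of the threshold and, for called genes, their direction. The direction of genes not called was not compared. With GC and length offsets, chosen after seeing the data, the sign turned for DCX (-0.55), KRT8 (0.46), ATF6 (-0.22, not called) and PDIA3 (-0.35). The cause was not tested. Genes at a few counts in a group are limited by depth, and their folds rest on bounds and intervals. Whether the 2 genotypes differ by cell composition or by RNA per cell cannot be told apart in these libraries.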
